A study of Mus musculus with 2 samples.

Results

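The miRNA genes described here are those of the Mirg cluster, the distal block of miRNA genes in the imprinted Dlk1-Dio3 region of mouse chromosome 12, from Mir379 to Mir3072. The rule that chose them uses position and no measured value: it takes every row of the count tables whose Ensembl gene lies on chromosome 12 between 109700000 and 109760000 of build mm10. This gave 38 of the 1973 miRNA genes listed. Places came from the GENCODE M21 annotation, in which 1894 of the 1973 were found, and the rest could not be placed. All 369 genes detected by the limit given below were found in it. Small RNAs were sequenced from the hearts of mouse embryos at embryonic day 16.5, strain B6NCrl, with no treatment and no engineered allele named in the labels. The 2 libraries are labelled as biological replicates of 1 group, embryos of both sexes were pooled, and 41 embryos went into replicate 2. The study has no second tissue, age or treatment. The questions that the design allows are how many reads each gene had, how the genes compared in reads, and how far the libraries agreed. Levels of different genes, here and below, compare read counts. How far these counts follow the amounts of the miRNAs in the tissue was not tested. A pool hides the spread between embryos, and in whole hearts a lower share of one cell type cannot be told apart from less miRNA per cell.

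A miRNA gene is transcribed as part of a longer RNA that folds into a hairpin. The hairpin is trimmed by nucleases to leave a short duplex, and 1 arm of it (named 5p or 3p after its place in the hairpin) is loaded into an Argonaute protein, which it guides to messenger RNAs that pair with its seed. The Dlk1-Dio3 region is imprinted: its protein-coding genes are expressed from the paternal chromosome, and its non-coding RNAs, among them Meg3, Rian, Mirg and the miRNAs, from the maternal one. The cluster is best known from placenta, embryo and brain. Of its members, miR-134 is known for its action on dendritic spines through Limk1, and miR-410 and miR-495 have been reported to promote proliferation of heart muscle cells.

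The mature sequences of the 10 members with the highest mean level show the seeds that the most abundant genes of the cluster carry. They are given 5′ to 3′ from RefSeq (GRCm38.p6), with the seed, bases 2 to 8, in capitals. For Mir487b only the 5p arm was given, so a seed of its 3p arm is not shown. The tables count reads per gene, so the arms of a hairpin share 1 count and cannot be ranked against each other.
miR-411-5p: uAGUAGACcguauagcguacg
miR-411-3p: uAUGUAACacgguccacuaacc
miR-487b-5p: uGGUUAUCccuguccucuucg
miR-409-5p: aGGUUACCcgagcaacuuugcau
miR-409-3p: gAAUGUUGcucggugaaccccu
miR-369-5p: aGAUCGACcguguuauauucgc
miR-369-3p: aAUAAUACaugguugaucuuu
miR-379-5p: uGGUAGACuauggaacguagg
miR-379-3p: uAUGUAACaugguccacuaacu
miR-541-5p: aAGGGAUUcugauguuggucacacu
miR-541-3p: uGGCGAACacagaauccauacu
miR-381-5p: aGCGAGGUugcccuuuguauauu
miR-381-3p: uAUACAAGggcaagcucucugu
miR-382-5p: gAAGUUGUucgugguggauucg
miR-382-3p: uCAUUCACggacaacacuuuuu
miR-376a-5p: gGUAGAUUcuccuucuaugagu
miR-376a-3p: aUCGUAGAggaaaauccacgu
miR-299a-5p: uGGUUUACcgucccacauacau
miR-299a-3p: uAUGUGGGacgguaaaccgcuu

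Of the members, 37 of 38 had a mature sequence in RefSeq, 69 sequences in all, with 64 different seeds. The exception was Gm27379. For Mir487b, Mir376c, Mir539, Mir485 and Mir453 only a single sequence was given, so the seed of any other arm is not counted here. The sequences given had mostly different seeds: 47 of the 69 had a seed found in no other mouse mature sequence of the table. Among these sequences, only 5 seeds were held by 2 members each. Those pairs are shown because a seed largely sets which messenger RNA sites a miRNA pairs with.
miR-379-5p: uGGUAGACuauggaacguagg
miR-1193-5p: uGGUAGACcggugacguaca
miR-379-3p: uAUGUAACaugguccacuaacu
miR-411-3p: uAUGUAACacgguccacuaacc
miR-1197-5p: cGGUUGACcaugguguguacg
miR-758-5p: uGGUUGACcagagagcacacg
miR-494-5p: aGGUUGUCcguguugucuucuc
miR-410-5p: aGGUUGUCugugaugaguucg
miR-453: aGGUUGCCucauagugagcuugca
miR-496a-5p: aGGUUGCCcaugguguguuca

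Seeds of the cluster were also close to one another. Among pairs of different member seeds, 22 of 2016 (1.09%) differed at 1 of the 7 bases, against 0.193% of the pairs among the 1334 seeds found only in other mouse miRNAs. The abundant genes Mir411 and Mir379 are one such pair through their 5p arms, and Mir381 and Mir300 another through their 3p arms.
miR-300-3p: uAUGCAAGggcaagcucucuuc
miR-381-3p: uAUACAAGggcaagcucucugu
The letters GGUU, searched anywhere in the sequence as printed, were in 15 of the 35 member 5p sequences (42.9%) and in 81 of 692 other mouse 5p sequences (11.7%). The longer GGUUG, which lies within those matches, was in 9 of 35 (25.7%) and 28 of 692 (4.05%). These letters were chosen after reading the member sequences, and a match is a description of sequence only.

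Each library held 15207730 and 12885555 reads in replicates 1 and 2, of which 29.5% and 31.9% mapped to several places and were given to no gene. After these, the unmapped reads and the reads on no listed gene, 6506574 and 5866216 counts fell on miRNA genes, and levels below are counts per 1000000 of these (CPM). Reads were taken to be whole small RNAs of similar length, so CPM was not divided by gene length. The member sequences in RefSeq have 19 to 25 bases, and the lengths of the reads themselves were not checked. The same 5 genes led the cluster when counts were divided by the length of the hairpin. For 4 members the row in the tables is a gene annotated on the minus strand that overlaps a plus-strand miRNA gene without a row of its own, and there the reads opposite to the row were used: Mir299b for Mir299a, Gm25750 for Mir380, Gm25252 for Mir376a and Gm24321 for Mir409. These members are called by the plus-strand gene. They held 17.4% ± 1.53 (SD, n = 2 libraries) of the cluster's counts. Genes outside the cluster kept only the reads of their own strand. Reads opposite to them over unlisted miRNA genes are therefore missing from the totals, ranks and shares over all genes. With such reads added genome-wide, a setting chosen after seeing the data, 379 genes rather than 369 reached 10 counts in each library. The cluster's mean share of counts was then 2.51% rather than 2.66%. On the minus strand the cluster was nearly silent, with 15 and 4 reads in all, every one at Mir299b, and 0 at the 34 plus-strand rows in either library.

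The cluster was broadly present in the fetal heart. Of its 38 genes, 33 (86.8%) reached 10 counts in each library, the limit used here for detection, while 18.7% of all 1973 listed genes did. The cluster took 178730 counts in replicate 1, which is 2.75% of all counts (95% Wilson interval 2.73% to 2.76%). In replicate 2 it took 150685 counts, or 2.57% (2.56% to 2.58%), and the mean was 2.66% ± 0.126. These intervals, like those below, cover counting error only and not the spread between libraries. They also treat each read as an independent molecule, which amplified reads need not be. Detected members had a median of 137 CPM in either library, near the medians of 114.5 and 111.7 CPM over all 369 detected genes.

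Levels within the cluster spanned more than 3 orders of magnitude. Mir411 was the highest member, with 37467 and 31728 counts in replicates 1 and 2, or 5583 ± 247 CPM, and it ranked 26th of the 369 detected genes. Mir487b followed with 31682 and 26434 counts, 4688 ± 257 CPM. These genes lay above every other member in both libraries and did not overlap each other. Mir409 had 18572 and 12818 counts, 2520 ± 473 CPM. Mir369, whose 3p arm has been described as a regulator of TNF mRNA, had 16141 and 14661 counts, 2490 ± 13.1 CPM. Mir379, the first gene of the cluster, had 14476 and 13189 counts, 2237 ± 16.6 CPM. Mir409 and Mir369 changed places between the libraries, and Mir409 lay above Mir379 in replicate 1 but below it in replicate 2. These 5 genes together held 65.9% ± 0.441 of the cluster's counts, and Mir411 alone held 21.01% ± 0.0657.

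The next 5 members lay between 699 and 1480 CPM. Mir541 had 8975 and 8684 counts, 1430 ± 71.4 CPM, and Mir381 had 9353 and 8270 counts, 1424 ± 19.6 CPM. Their order turned over between the libraries. Mir382 had 8634 and 7177 counts, 1275 ± 73.2 CPM. Mir376a, a member of the miR-376 family that is known for adenosine-to-inosine editing of its hairpins, had 6942 and 5855 counts, 1032.5 ± 48.7 CPM. Mir299a had 5532 and 4103 counts, 775 ± 107 CPM. The 10 highest members held 88.2% ± 0.0461 of the cluster's counts and ranked 89th or higher among all detected genes, against 109th for the next member. Mir1193 came next with 3363 and 2603 counts, 480 ± 51.7 CPM. Mir154 had 2732 and 2280 counts, 404 ± 22.1 CPM, and Mir134 had 2718 and 2245 counts, 400.2 ± 24.8 CPM. Mir154 lay just above Mir134 in each library, but the ranges of these neighbours overlapped. Mir380 had 2061 and 1876 counts, 318 ± 2.15 CPM.

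**Figure D1:**
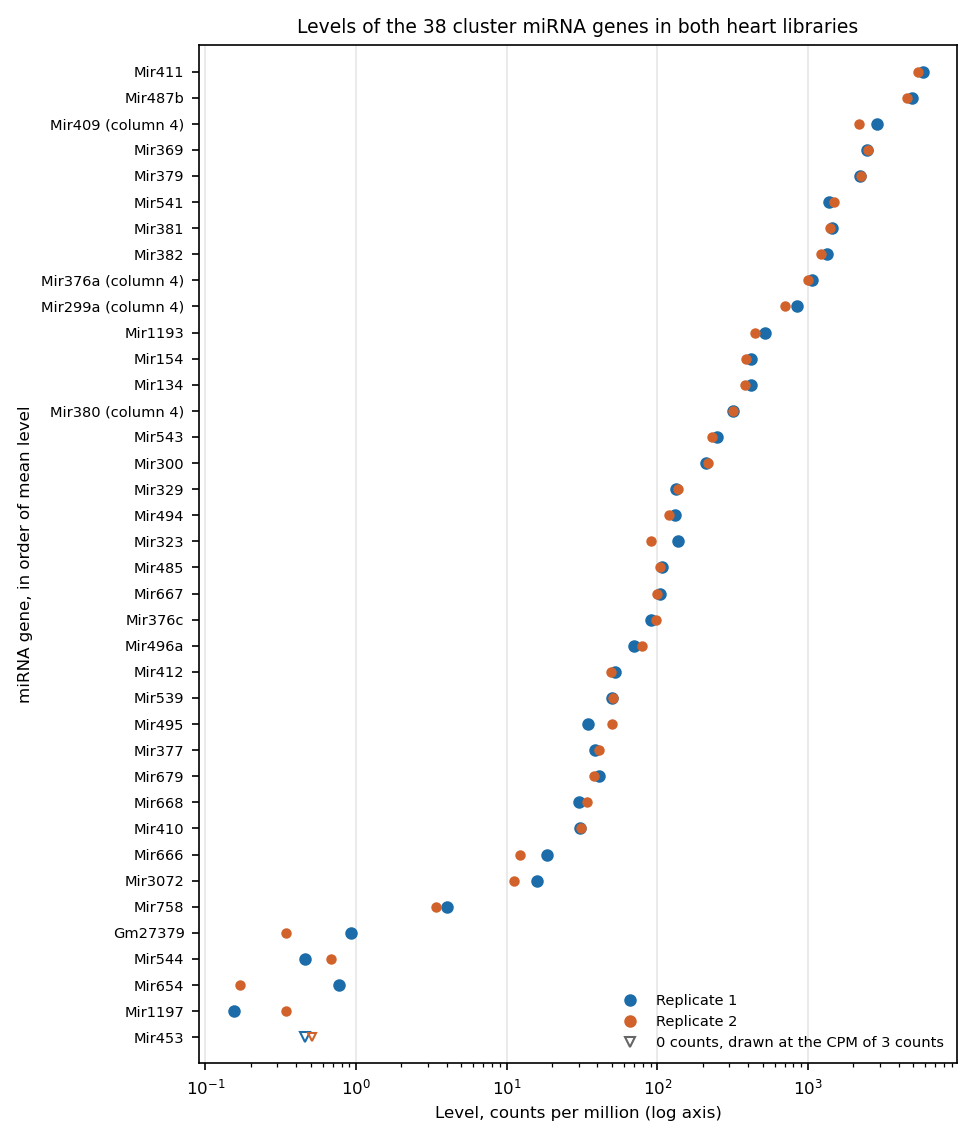
Level of each of the 38 cluster genes in CPM (horizontal log axis), in order of mean level, with blue points for replicate 1 and orange points for replicate 2. Open triangles mark 0 counts, drawn at the CPM of 3 counts; Mir411 stands at 5758 and 5409 CPM, and the libraries lie close together for most genes down to Mir758 at 3.996 and 3.41 CPM.

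The lower 20 detected members shared 6.92% ± 0.190 of the cluster's counts. From the highest they were Mir380, Mir543, Mir300, Mir329, Mir494, Mir323, Mir485, Mir667, Mir376c, Mir496a, Mir412, Mir539, Mir495, Mir377, Mir679, Mir668, Mir410, Mir666, Mir3072 and Mir758. Mir494 had 853 and 700 counts, 125 ± 8.32 CPM, and Mir496a had 453 and 463 counts, 74.3 ± 6.58 CPM. Mir410, one of the members linked to heart muscle proliferation, was far from abundant, with 200 and 182 counts, 30.9 ± 0.203 CPM. The other, Mir495, had 226 and 291 counts, 42.2 ± 10.5 CPM. The lowest detected members were Mir666 with 120 and 72 counts, Mir3072 with 103 and 66 counts, and Mir758 with 26 and 20 counts. In CPM these were 15.4 ± 4.36, 13.5 ± 3.24 and 3.70 ± 0.415, and the ranges of Mir666 and Mir3072 overlapped. Over the whole order of detected members, 22 of 32 neighbouring pairs did not overlap between the libraries. The close ranks of the other pairs were not resolved. Spearman's rank correlation between the levels in both libraries was 0.990 over the 33 detected members, so the broad order was shared.

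The remaining 5 members were below the detection limit. Gm27379 had 6 and 2 counts, and Mir654 had 5 and 1. Mir544 had 3 and 4 counts, and Mir1197 had 1 and 2. Mir453 had 0 counts in both libraries, which allows a level of up to 0.461 CPM in replicate 1 and 0.511 CPM in replicate 2. Mir376b, which is annotated in the same stretch, has no row in the tables and was not analysed here.

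The paired seeds came from genes at unequal levels. These are levels of whole genes, and the level of the arm that carries a seed is not known. The seed GGUAGAC was carried by Mir379 at 2237 CPM and by Mir1193 at 480 CPM. AUGUAAC was carried by Mir379 and by Mir411, both among the 5 highest genes. GGUUGUC came from Mir494 at 125 CPM and Mir410 at 30.9 CPM. Both carriers of GGUUGAC were scarce, Mir758 at 3.70 CPM and Mir1197 below detection. GGUUGCC had 1 detected carrier, Mir496a at 74.3 CPM, beside Mir453 at 0. Within the same stretch, miR-376c-5p shared its seed with miR-376b-5p and miR-299a-3p with miR-299b-3p, from genes with no counts of their own used here. Beyond the cluster, 10 member sequences shared a seed with a mouse miRNA encoded elsewhere. The most abundant outside carrier was miR-1983, which shares the seed of miR-412-3p and whose gene had 7230 and 6397 counts against 341 and 288 for Mir412. Of the others, miR-329-3p shared its seed with miR-362-3p, whose gene had 929 and 1164 counts against 861 and 804 for Mir329. The seed of miR-1193-3p was shared with miR-370-5p, from Mir370 of the same imprinted region, with 1210 and 858 counts.

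High and low members were interleaved along the chromosome. The cluster spans 38.9 kb on the plus strand, from 109709060 to 109747960. Across all 38 members, Spearman's rank correlation was -0.095 between level and distance from Mir379, and 0.030 over 37 neighbouring pairs between the level of a gene and that of the next. Both are descriptions over genes that share libraries and depth. The median step between neighbours was 3.57 on the log2(CPM + 1) scale, and 19 of 37 steps were over 8-fold on that scale. Genes a short distance apart could differ widely. Mir369 starts 297 bases before Mir410, and had 80.7-fold its counts in replicate 1 and 80.6-fold in replicate 2. Mir409 starts 131 bases before Mir412, and the fold was 54.5 and 44.5. Mir487b starts 796 bases before Mir539, and the fold was 96.9 and 89.3. Mir382 and Mir134, 368 bases apart, differed less, by 3.18-fold and 3.20-fold.

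**Figure D2:**
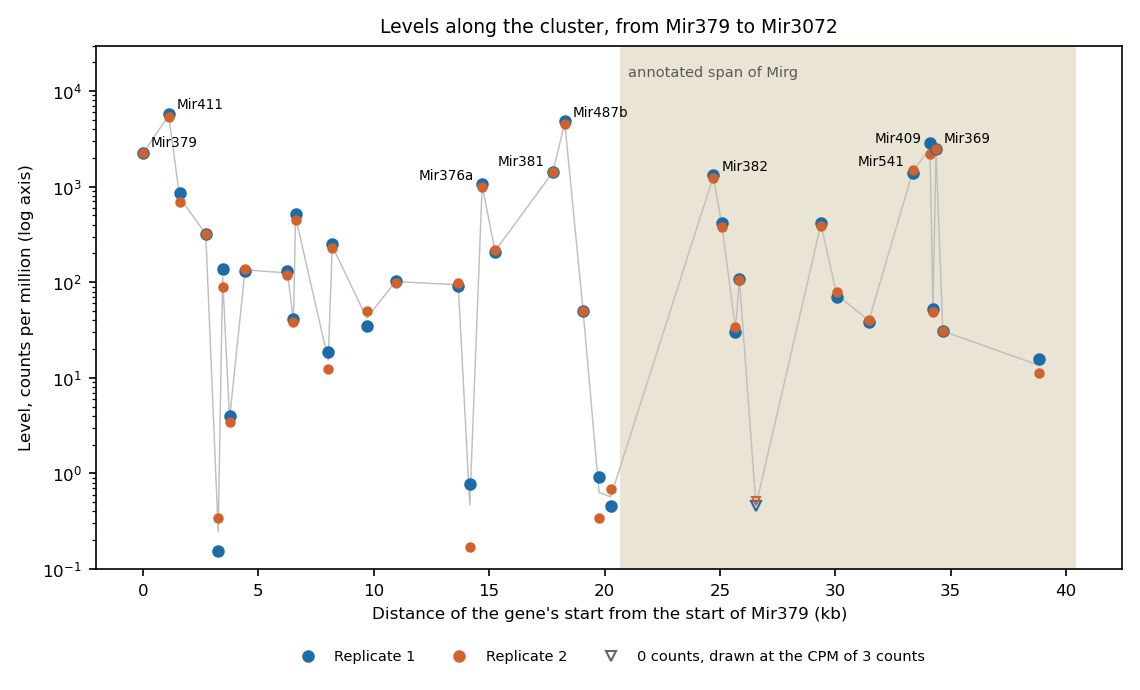
Level of each member in CPM (vertical log axis) against the distance of its start from Mir379 in kb, with blue for replicate 1, orange for replicate 2, open triangles for 0 counts drawn at the CPM of 3 counts, and a grey line through the means. High and low genes alternate along the 38.9 kb, as at Mir369 and Mir410 near the right end, and the shaded span of Mirg begins 20.7 kb after Mir379.

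The gene that gives the cluster its name covers only part of it in the annotation. Mirg, a non-coding RNA gene, runs from 109729764 to 109749460 on the plus strand (GENCODE M21, GRCm38), so it begins 20.7 kb after the first member. In that annotation 24 members, 20 of them detected, lie upstream of Mirg with no annotated host gene. They included Mir411, Mir487b and Mir379 and held 66.6% ± 0.321 of the cluster's counts. Within Mirg, 5 members lie in introns and held 16.6% ± 0.781. These are Mir453, Mir154, Mir496a, Mir541 and Mir409. A further 9, all detected, lie in exons and held 16.7% ± 0.460: Mir382, Mir134, Mir668, Mir485, Mir377, Mir412, Mir369, Mir410 and Mir3072. The median of detected members was 173 CPM upstream, 917 CPM in introns (n = 4) and 50.8 CPM in exons. The classes overlapped widely, from 3.70 to 5583 CPM upstream, 74.3 to 2520 CPM in introns and 13.5 to 2490 CPM in exons. The split depends on the annotation: RefSeq starts Mirg at 109734981, which leaves 28 members with 73.5% ± 0.278 of the cluster's counts upstream.

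Some of the most similar hairpins were far apart in level. Among the 35 members with a RefSeq hairpin, the hairpins had a median identity of 50.6% over 595 pairs, against 47.2% over 560 pairs with the 16 hairpins of the other Dlk1-Dio3 miRNA genes. The most similar member was a median of 66.3% identical, and a median of 2.81 apart in level on the log2(CPM + 1) scale. The widest gap was between Mir411 and Mir758, whose hairpins were 73.5% identical. Mir411 had 1441-fold the counts of Mir758 in replicate 1 and 1586-fold in replicate 2. Both hairpins are shown from RefSeq, with the 21 bases they share in capitals.
Mir411: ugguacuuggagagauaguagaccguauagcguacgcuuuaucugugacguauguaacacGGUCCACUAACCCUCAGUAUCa
Mir758: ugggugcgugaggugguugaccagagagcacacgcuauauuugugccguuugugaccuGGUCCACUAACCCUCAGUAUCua
Mir300 and Mir381 were the most similar pair, at 73.75%, and Mir381 had 6.88-fold and 6.55-fold the counts of Mir300. Mir494 and Mir323, 71.9% identical, were close in level, and Mir323 lay above Mir494 in replicate 1 and below it in replicate 2.

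**Figure D3:**
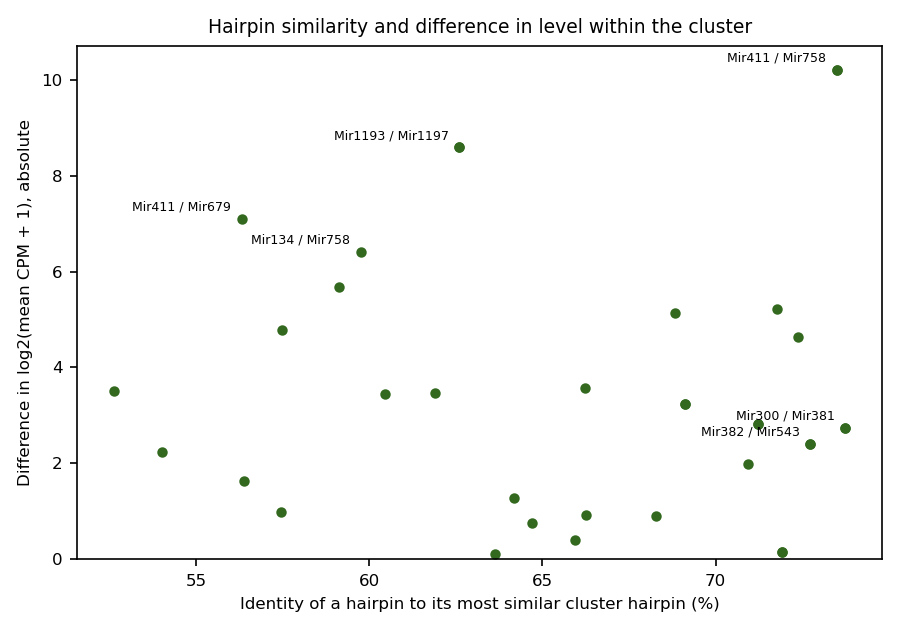
Absolute difference in level, in log2(mean CPM + 1), between each member hairpin and the most similar hairpin of the cluster (vertical), against their identity in percent (horizontal). Mir411 with Mir758 lies at 73.5% and a difference of 10.2, while Mir494 with Mir323 lies at 71.9% and 0.14.

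Shared sequence limits the assignment of reads for 4 members, which hold a run of at least 20 bases found in another hairpin. They are Mir411 and Mir758, 21 bases, and Mir376c and Mir487b, which share 31 and 20 bases with the unlisted Mir376b. None of the members' mature sequences given in RefSeq was found whole in another hairpin. The shared runs covered 12 of the 22 bases of miR-411-3p and 18 of the 22 of miR-376c-5p. The 3p arms of Mir487b and Mir376c were not among the sequences given and were not checked. How much these genes lost to reads mapping to several places was not tested.

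The libraries agreed closely over the cluster, and no member passed the call rule. The test was an exact two-sided binomial test of the counts of both libraries, scaled by edgeR's TMM factors, with Benjamini-Hochberg adjustment over the 369 detected genes. It compares these 2 libraries, and no conditions, and its p-values cover counting error only. They do not include the spread between the libraries, for which edgeR's estimate over all genes was a biological coefficient of variation of 17.5%. Genes were called where the libraries differed 2-fold or more with adjusted p below 0.05. Of the 33 detected members, 0 were called by this test, 0 in either direction, under TMM, total-count or DESeq2 scaling alike, although 17 had an unadjusted p below 0.05. Of all 369 genes 12 were called (3.25%), with 1.63% higher and 1.63% lower in replicate 2. With no minimum fold, 13 members passed, which is 39.4% of the 33 against 47.4% of all genes, so the share of members was no larger than the background. All 33 members lay within 1.5-fold, against 86.7% of all detected genes. Mir323, however, lay just past 1.5-fold, at a log2 ratio of -0.60, with total-count or DESeq2 scaling. Agreement within 1.5-fold was not particular to the cluster. The other detected Dlk1-Dio3 miRNA genes listed below also lay within it, with Mir433 the farthest at a log2 ratio of -0.32. So did the listed genes of other imprinted loci, with Mir335 the farthest at 0.42. The median absolute log2 ratio was 0.090 for members and 0.21 for all genes, on counts with 0.5 added, and members had a higher median level than all genes.

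Of the members that passed without a minimum fold, 3 were higher in replicate 2 (26.6% of all genes were) and 10 were lower (20.9% of all genes were). Mir495 was higher by the most, a log2 ratio of 0.54 (interval 0.28 to 0.80, adjusted p = 8.76e-05 by the exact binomial test). Mir541 was higher by 0.13 and Mir379 by 0.040, and Mir379 no longer passed under total-count or DESeq2 scaling, where Mir154 passed as lower. Mir323 fell by 0.58 (adjusted p = 7.72e-13 by the exact binomial test) and Mir666 fell by 0.56 (adjusted p = 0.0216 by the same exact test). Mir409 fell by 0.36, or 1.28-fold, with an adjusted p of 3.03e-105 by that exact test, the smallest of the cluster. The others that fell, by 0.066 to 0.26, were Mir299a, Mir1193, Mir134, Mir382, Mir487b, Mir376a and Mir411. The cluster as a sum differed by -0.072 (interval -0.082 to -0.062). The neighbours Mir543 and Mir495 show how a ratio between members can shift: Mir543 had 7.15-fold the counts of Mir495 in replicate 1 and 4.65-fold in replicate 2, with counting intervals that did not overlap. For Mir369 against Mir410 the counting intervals overlapped almost entirely.

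**Figure D4:**
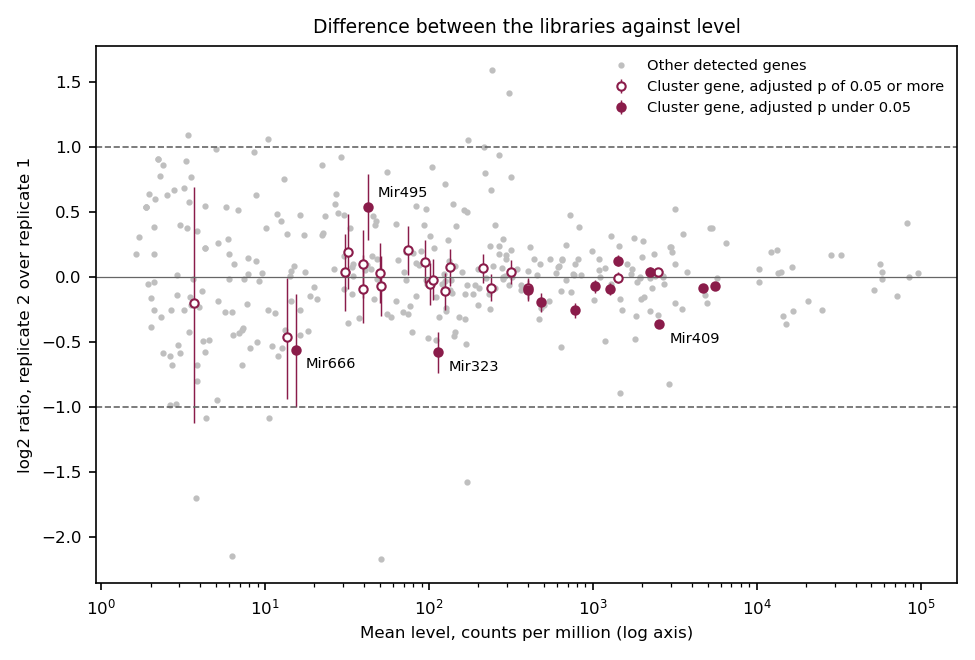
Log2 ratio of replicate 2 over replicate 1 (vertical) against mean level in CPM (horizontal log axis), with cluster genes in purple, 95% counting intervals as bars, filled where the adjusted p is under 0.05, and other detected genes in grey. All 33 detected members lie between the dashed lines at 2-fold, and Mir495 at 0.54 and Mir323 at -0.58 are the farthest from 0.

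For scale, the rest of the Dlk1-Dio3 region was counted from a list of 20 other miRNA genes, of which 19 had a row and 14 were detected. Mir136 had no row of its own. These took 57915 and 50372 counts, 0.874% ± 0.0222 of the total. The Mirg cluster had 3.09-fold as many in replicate 1 and 2.99-fold in replicate 2, a mean log2 ratio of 1.60. Without the genes that share 20 bases with another hairpin, among them Mir411 and Mir487b, the log2 ratio was 0.89. The highest of the list were Mir127, with 24249 and 22078 counts, Mir431, with 13670 and 10765, and Mir434, with 5038 and 4916. Mir127 thus lay between Mir487b and Mir409 of the cluster. No gene of the list was called at 2-fold, and 3 were higher and 5 lower with no minimum fold. Among miRNA genes of other imprinted loci, Mir335 had 462734 and 547159 counts, more than the whole cluster, and Mir675 had 593 and 656 counts. Mir483, Mir296 and Mir298, at 2347, 2301 and 1849 CPM, lay between the mean levels of Mir409 and Mir541 of the cluster, but in replicate 2 Mir483 and Mir296 were above Mir409.

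Markers were read from the same tables. The miRNA genes set in heart muscle myosin genes, Mir208a, Mir208b and Mir499, were all detected and took 6.71% ± 0.0368 of counts. With no minimum fold, 2 of them were higher in replicate 2 and 1 was lower. The whole neural list, 9 of 10 measured and 3 detected, took 0.0282% and 0.0442% of counts in replicates 1 and 2. Most of the list's counts were at Mir128-1, with 1215 and 1712, and Mir128-2, with 493 and 785, which were the 2 genes higher in replicate 2 with no minimum fold. Mir219a-1 had 93 and 85 counts, Mir219a-2 had 19 and 9, and Mir9-3 had 16 and 1. The copies of Mir124 had 0 or 1 count and Mir9-2 had 0. Every miRNA of the neural list has more than 1 copy, and reads of multi-copy miRNAs can map to several places. Such reads are then in no gene. Neither these counts nor the share of the list therefore says anything of neural content. The muscle gene Mir1a-1 stood at 2.40 CPM, and how many of its reads mapped to several places was not tested. Epithelial miRNAs took 0.460% and 0.322%, with 5 of 5 lower in replicate 2 with no minimum fold. The skeletal muscle miRNA Mir206 was called higher in replicate 2, with 742 and 1369 counts. The endothelial Mir126a took 8.47% ± 0.111 of counts. In the smooth muscle and fibroblast list 1 gene was higher and 1 lower in replicate 2 with no minimum fold. By the same limit 1 erythroid gene was lower, and Mir126a, the myeloid Mir223 and the liver Mir122 did not pass. The part of these differences in the values of Mir495, Mir323 and Mir409 was not tested.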

How the data were processed

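Both libraries are small RNA libraries of pooled embryonic hearts, 1 group with 2 replicates. The deposited tables hold raw read counts per gene, in columns 2 (either strand), 3 and 4, against mm10 and annotation M4 per the file lists deposited with each library. The aligner, counter and trimming are not given in the sources used here. Column 3 was used, and column 4 for 4 minus-strand rows. The 4 lines naming no gene stayed out of totals. Gene places came from GENCODE M21, where 25 of 38 members have the same gene version, and sequences from RefSeq. edgeR 4.0.16 and DESeq2 1.42.0 gave scaling factors, and edgeR also gave the biological coefficient of variation. Intervals for ratios are Clopper-Pearson (95%) and for shares Wilson. The test was checked on simulated counts of the detected genes, drawn with counting error only. That check cannot show how the test behaves where libraries also differ beyond counting error.

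Members and lists were chosen with earlier results of these data known. Every member is named. Full values are given for the 12 highest members, those read from column 4, those in shared seed groups and the 4 lowest detected, and others named were chosen after their values were seen. Alternatives were other scalings, count limits, count columns, denominators, shared-sequence lengths and leaving out each replicate.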

Additional observations from a re-analysis of the deposited data

Results flagged for a closer look

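Reads on the minus strand of the cluster were counted in a column that no comparison uses for that gene. Mir299b, annotated on the strand opposite to Mir299a, had 15 counts on its own strand in replicate 1 and 4 in replicate 2, above the limit of 3 counts that a count of 0 allows. The opposite strand, assigned here to Mir299a, had 5532 and 4103 counts at the same place. No other member had a minus-strand read.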

How the results depend on the processing

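Depth limits the 5 undetected members and the close ranks, and 2 libraries of 1 group leave the spread between hearts poorly known. No paired analysis was possible because there is 1 group, and its replicate numbers pair no samples. The number of detected members ran from 29 (column 3 for every row) to 37 (1 count in each library) and was 33 without either replicate. The cluster share of 2.66% became 2.20% with column 3 for every row, 2.51% with column 2, 1.17% of all reads, 2.94% without the most abundant gene, 2.51% with opposite-strand counts added genome-wide (chosen after seeing the data) and 1.62% without the members that share 20 bases with another hairpin, among them Mir411 and Mir487b. It was 2.57% to 2.75% without either replicate. The cluster's log2 ratio between libraries was -0.072, and -0.097 with total-count scaling, -0.090 with DESeq2 size factors and -0.035 with column 3. The log2 ratio over the other Dlk1-Dio3 genes, 1.60, became 1.33 with column 3, 0.89 without genes sharing 20 bases, and 1.58 to 1.63 without either replicate. The 5 highest members' share, 65.9%, became 74.9% with column 3, where Mir409 is at 0, and 65.6% to 66.2% without either replicate. No member was called at 2-fold under any setting, and 13 passed with no minimum fold. That count was 13 under the other scalings and with column 2 (Mir379 lost, Mir154 gained), 11 without the count filter (Mir379 and Mir134 lost), 9 with column 3 and 12 with opposite-strand counts added. Calls over all genes went from 12 to 21 without the count filter and 175 with no minimum fold. Members sharing a run went from 4 to 1 at 22 bases. All 33 member ratios kept their sign under each scaling. Replacing strands genome-wide outright was not run, because it would drop the own-strand reads of other genes.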
